A study of Rattus norvegicus with 6 samples.

Results

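Heat shock proteins and chaperones bind unfolded proteins, keep them from clumping and help them to fold, and the genes described here are those whose symbols name them: the small heat shock proteins (Hspb), the HSP70 and HSP110 families (Hspa, Hsph1), HSP90 (Hsp90), the mitochondrial chaperonin (Hspd1, Hspe1), the J-domain co-chaperones (Dnaja, Dnajb, Dnajc), the HSP70 co-chaperones Bag and Hspbp1, the cytosolic chaperonin (Cct), and chaperones and stress genes of the endoplasmic reticulum (Hyou1, Pdia, Calr, Canx, Herpud1, Xbp1, Sdf2l1). Members were taken by symbol, and the list was drawn up with earlier results of these data known. Of 13355 genes tested, 86 were members. Another 5 genes whose symbols qualified were not analysed here: Dnajc5g had an empty probe set, and Hspa1a, Hspa1b, Hspa1l and Pdia2 appeared only on probe sets annotated to several genes. The stress-inducible HSP70 genes are therefore missing from what follows.

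The RNA was of oligodendrocyte progenitor cells (OPCs) in primary culture from rats, glial cells that divide and then mature into myelin-forming oligodendrocytes. Pups were of postnatal day 1 to 2, and the cells recovered for 2 days in proliferation medium with NT3 and PDGF. The fibrinogen group (3 arrays) received fibrinogen, the clotting protein of blood plasma, for 48 h in differentiation medium, and the control group (3 arrays) was unstimulated, with the same 48 h in its titles and no medium of its own stated. Expression was read on Affymetrix gene arrays, and the values are the authors' log2 expression levels, so that a difference of 1 is a 2-fold change. No strain, batch, scan time or dose is given, and nothing says whether the 3 arrays of a group came from separate cultures, so the p-values measure only the spread between these arrays.

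Cells meet misfolded proteins with several separate programmes. In the cytosol, heat shock factor HSF1 binds heat shock elements, repeats of the letters GAA and TTC, and switches on HSP70, HSP90, J-domain and small heat shock protein genes. In the endoplasmic reticulum, the unfolded protein response acts through ATF6, XBP1 and ATF4 and raises the chaperone BiP (Hspa5) and its partners. Small heat shock proteins work without ATP: they hold unfolded proteins, bind cytoskeletal filaments, and are known from reactive glia, and BAG3 links several of them to HSP70 and to autophagy.

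The upstream sequences are shown here for the members that passed the test below and held a match to a heat shock element. Dnajb5 and Dnajc9 also passed that test, but held no match in the bases searched and are not shown. RefSeq gave the 250 bases before the gene start (build GRCr8) for 71 of the 86 members. The 2-unit element GAANNTTC, which reads the same on both strands, occurred upstream of 13 of these 71 members (18.3%), of 5.35% of the 11002 tested genes with a sequence, and of 7.71% of all 27457 genes in the table. The 3-unit element GAANNTTCNNGAA, searched on both strands and always containing the 2-unit one, occurred upstream of 4 of 71 members (5.63%), against 0.427% of the tested genes. Capitals below mark these matches, all within 132 bases of the gene start except that of Hspb6, which begins 149 bases before it. The other order of the 2 units, TTCNNGAA, was not searched on its own. A window may therefore hold it unmarked, and the counts do not cover it. The windows are chr12:26432302-26432551 (minus strand) for Hspb1, chr1:94934122-94934371 (plus) for Hspb6, chr12:45837058-45837307 (plus) for Hspb8, chr1:192533210-192533459 (plus) for Bag3 and chr12:10427118-10427367 (plus) for Hsph1.
Hspb1: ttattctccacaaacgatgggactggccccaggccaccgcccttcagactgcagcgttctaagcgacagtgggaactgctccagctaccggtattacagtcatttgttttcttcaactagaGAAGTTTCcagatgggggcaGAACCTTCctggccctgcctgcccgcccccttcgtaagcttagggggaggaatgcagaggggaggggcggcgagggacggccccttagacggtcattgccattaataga
Hspb6: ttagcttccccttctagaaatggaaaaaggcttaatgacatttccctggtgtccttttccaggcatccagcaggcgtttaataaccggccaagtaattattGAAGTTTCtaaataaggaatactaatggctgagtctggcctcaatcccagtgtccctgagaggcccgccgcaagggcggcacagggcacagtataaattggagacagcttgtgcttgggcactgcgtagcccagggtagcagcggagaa
Hspb8: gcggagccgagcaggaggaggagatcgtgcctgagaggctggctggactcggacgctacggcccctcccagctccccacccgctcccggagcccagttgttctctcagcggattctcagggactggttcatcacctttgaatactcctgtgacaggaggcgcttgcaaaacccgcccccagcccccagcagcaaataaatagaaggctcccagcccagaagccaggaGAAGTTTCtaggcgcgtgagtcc
Bag3: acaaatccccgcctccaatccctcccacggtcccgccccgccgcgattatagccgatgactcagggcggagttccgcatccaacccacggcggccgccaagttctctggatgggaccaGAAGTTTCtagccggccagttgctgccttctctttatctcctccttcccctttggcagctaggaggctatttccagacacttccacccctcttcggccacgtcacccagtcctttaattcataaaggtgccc
Hsph1: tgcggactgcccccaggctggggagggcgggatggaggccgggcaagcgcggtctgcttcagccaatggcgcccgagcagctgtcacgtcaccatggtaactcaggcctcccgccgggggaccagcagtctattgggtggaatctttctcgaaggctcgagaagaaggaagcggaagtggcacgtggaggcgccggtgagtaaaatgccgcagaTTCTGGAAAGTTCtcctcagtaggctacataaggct
Hspb1 held 2 matches, and Hspb6, Hspb8 and Bag3 held 1 each. The same 8 letters, GAAGTTTC, picked out from these sequences, stood in Hspb1, Hspb6, Hspb8 and Bag3 and also upstream of Hspa9, which did not pass the test below. On either strand they were found for 5 of 71 members (7.04%) and for 1.03% of the tested genes. All of these members except Hspa9 are the genes that the letters were picked from. The share of members was thus set by that choice and cannot be compared with the share of tested genes. Hsph1 held the 3-unit form. A match is a description of the letters and shows no binding.

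With fibrinogen, a few of the chaperone genes differed from control, in opposite directions, and most did not pass the test. In limma, with the p-value adjusted over all genes and a threshold of 0.05, 5 of the 86 members rose (Hspb1, Hspb6, Bag3, Dnajb5 and Dnajc9), 2 fell (Hspb8 and Hsph1) and 79 did not pass. That is 8.14% of the members, near the background of 7.16% of all genes tested (4.16% higher and 3% lower), so that as a whole the chaperones were called about as often as other genes. The 3 fibrinogen arrays did not overlap with the 3 control arrays for 28 members (32.6%), against 27% of all genes. The median log2 fold change was 0.05 for the members and 0.003 for all genes, and the median absolute change was 0.10 for the members and 0.12 for all genes. After the median of each array was subtracted, the medians were 0.007 for the members and -0.04 for all genes, and the calls over all genes, 555 higher and 401 lower as deposited, were 434 higher and 516 lower. The 95% interval lay inside a 1.5-fold change in either direction for 74 of the 86 members (86%) and for 79.9% of all genes, so that most genes on the arrays shared this narrow range. In these bulk cultures, a change in the number of cells of a type and a change in the RNA of each cell cannot be told apart.

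**Figure D1:**
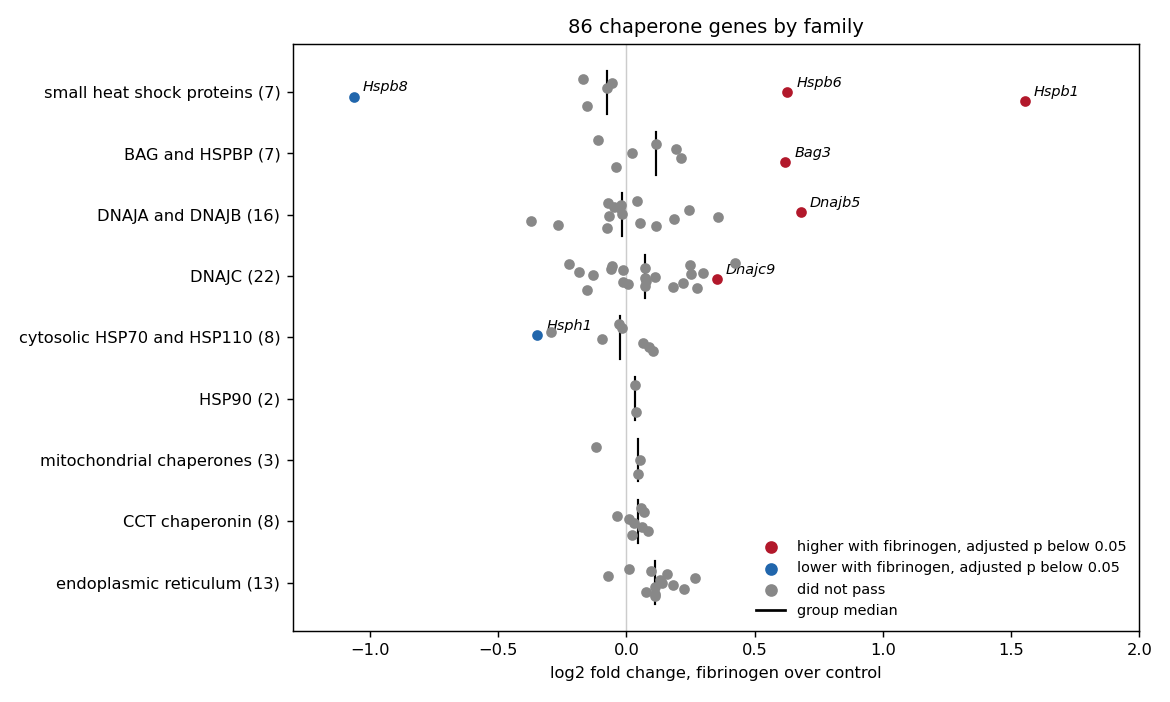
Log2 fold change (fibrinogen over control, horizontal axis) of all 86 members, 1 point per gene, in rows by family with the number of genes in brackets; vertical strokes are family medians and colour shows the call (red higher, blue lower, grey did not pass). Most points lie close to 0, and 3 of the 7 called genes, among them the largest rise and the largest fall, are small heat shock proteins.

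Of the 7 small heat shock protein genes measured, 2 rose, 1 fell and 4 did not pass. Hspb1 (probe set 10761128) encodes HSP27, a holder of unfolded proteins that also binds actin filaments. Its log2 levels were 10.02, 9.94 and 9.97 on fibrinogen arrays, against 8.39, 8.50 and 8.38 on control arrays. The groups lay far apart, and the arrays within a group differed by little. The change was 2.93-fold upward (log2 fold change 1.55, SE 0.07, 95% interval 1.38 to 1.73, adjusted p = 0.000898), the largest of the 86 members. Hspb6 (HSP20, a small heat shock protein of muscle and other tissues; 10706009) stood at 8.76, 8.86 and 8.92 with fibrinogen and at 8.23, 8.09 and 8.34 in control. All fibrinogen arrays were above all control arrays, and the gene rose 1.54-fold (log2 fold change 0.63, SE 0.09, adjusted p = 0.0102).

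Hspb8 (HSP22, the small heat shock protein that BAG3 carries to HSP70 and autophagy; 10758930) went the other way. Its log2 levels were 5.93, 5.61 and 6.11 on fibrinogen arrays, against 6.98, 6.96 and 6.90 on control arrays. The fibrinogen arrays were all lower, and more spread out (5.88 ± 0.25 against 6.95 ± 0.04 in control; SD, n = 3). The gene fell 2.09-fold (log2 fold change -1.06, SE 0.13, 95% interval -1.37 to -0.76, adjusted p = 0.00503), the largest fall of the members. The calls of Hspb6 and Hspb8 were lost without variance moderation (adjusted p = 0.0502 and 0.0516).

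The other small heat shock protein genes, Hspb2, Hspb3, Hspb7 and Hspb9, changed by -0.06, -0.17, -0.08 and -0.15 on the log2 scale and did not pass. All 4 had control levels below the median probe set of the arrays (5.78), where no detection call says whether they were expressed. Cryab (alpha B-crystallin, a small heat shock protein by structure that the symbols do not catch) stood at 6.93, 6.87 and 6.99 with fibrinogen and at 6.43, 6.23 and 6.41 in control. It rose 1.49-fold (log2 fold change 0.57, SE 0.09, adjusted p = 0.0107), and the call was lost without fibrinogen 1 (adjusted p = 0.0514). Cryab neighbours Hspb2 in the rat genome, and Hspb2 had a 95% interval of -0.30 to 0.19.

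**Figure D2:**
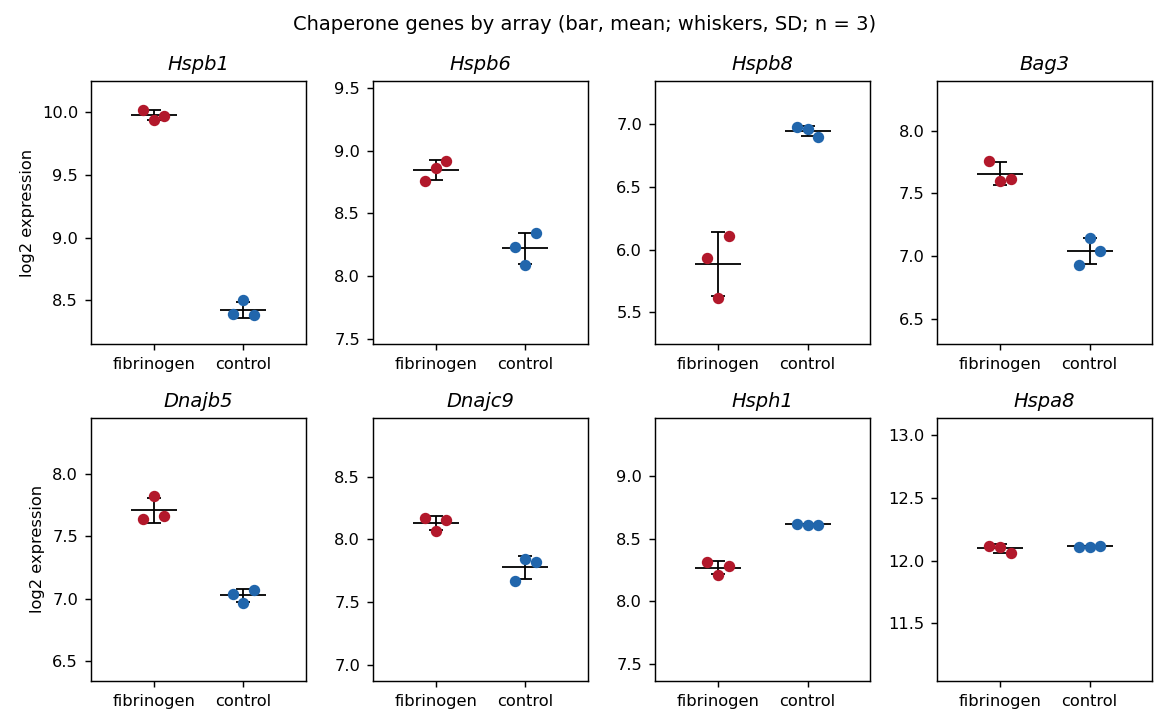
Log2 expression of the 7 called members and of Hspa8 on each array (points; fibrinogen left, control right), with group means (bars) and SD (whiskers, n = 3); every panel spans the same height on the log2 scale. Fibrinogen arrays lie above all control arrays for Hspb1, Hspb6, Bag3, Dnajb5 and Dnajc9 and below them for Hspb8 and Hsph1, and the groups overlap for Hspa8.

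Of the 7 Bag and Hspbp1 genes, a group that includes exchange factors releasing substrate from HSP70, 1 rose and 6 did not pass. Bag3 (10711401) had log2 levels of 7.76, 7.60 and 7.61 with fibrinogen and 6.93, 7.14 and 7.04 in control. The groups did not overlap, and Bag3 rose 1.54-fold (log2 fold change 0.62, SE 0.09, 95% interval 0.41 to 0.83, adjusted p = 0.00925). Bag3 thus rose, as did Hspb1 and Hspb6, while Hspb8, a partner of BAG3, fell in the same arrays. Bag1 and Bag2, exchange factors of the same family, were at 0.21 and 0.19 on the log2 scale (adjusted p = 0.171 and 0.459). All fibrinogen arrays were above control for Bag1. Among the alternative fits it passed only where the variance was allowed to follow brightness (adjusted p = 0.0484). Bag4, Bag5, Bag6 and Hspbp1 lay between -0.11 and 0.12.

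J-domain proteins deliver substrates to HSP70 and set off its ATPase. Of the 16 Dnaja and Dnajb genes, 1 rose and 15 did not pass. Dnajb5 (10868428), a cytosolic J-domain protein, stood at 7.64, 7.82 and 7.66 on fibrinogen arrays and at 7.04, 6.97 and 7.07 on control arrays. The groups were clearly apart, and it rose 1.60-fold (log2 fold change 0.68, SE 0.08, 95% interval 0.49 to 0.87, adjusted p = 0.00496). Dnajb1 (HSP40, a standard readout of HSF1 activity) was at 7.87, 7.87 and 7.69 with fibrinogen and at 7.81, 7.85 and 7.84 in control, an overlap, with a log2 fold change of -0.02 (95% interval -0.21 to 0.17). Dnaja4 and Dnajb2 had the next smallest p-values of this group, with changes of 0.36 and -0.37 that did not pass (adjusted p = 0.154 and 0.169). Both probe sets of Dnajb12 held identical values and count as 1 measurement.

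Of the 22 Dnajc genes, 1 rose and 21 did not pass. Dnajc9 (10779162), in human cells a J-domain protein that also binds histones, had log2 levels of 8.17, 8.07 and 8.15 with fibrinogen and 7.67, 7.84 and 7.82 in control. It rose 1.28-fold (log2 fold change 0.35, SE 0.08, adjusted p = 0.0453), close to the threshold. That call was lost without any 1 of the 6 arrays (highest adjusted p = 0.148, without fibrinogen 1), with each array centred on its median (adjusted p = 0.0616) and without moderation (adjusted p = 0.0762). It was also lost with the array numbers of the titles fitted as a replicate block (adjusted p = 0.134). Dnajc30, a mitochondrial J-domain protein, stood at 8.46, 8.30 and 8.56 with fibrinogen and at 8.20, 7.88 and 7.97 in control. Its groups did not overlap, but its change of 0.42 did not pass (95% interval 0.16 to 0.69, adjusted p = 0.0723). Dnajc10 (ERdj5, a disulfide reductase of the endoplasmic reticulum) was at 0.25 (adjusted p = 0.0863). These last 2 passed when dim genes were left out or the variance followed brightness, and Dnajc10 also passed without moderation (adjusted p = 0.0364). Dnajc15 and Dnajc8, at 0.27 and 0.22, did not pass (adjusted p = 0.137 and 0.138). Both passed without genes below the median brightness and where the variance followed brightness.

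Of 8 cytosolic HSP70 and HSP110 genes, 1 fell and 7 did not pass. Hsph1 (10756343) encodes HSP105, the HSP110 exchange factor that helps HSP70 to undo aggregates. Its log2 levels were 8.31, 8.21 and 8.28 on fibrinogen arrays, against 8.62, 8.61 and 8.61 on control arrays. The control arrays were nearly identical and all above the fibrinogen arrays, and the gene fell 1.27-fold (log2 fold change -0.35, SE 0.07, adjusted p = 0.0306). The call was lost without any 1 of the 6 arrays (highest adjusted p = 0.113, without fibrinogen 2) and with a replicate block (adjusted p = 0.109). Hspa8 (HSC70, the constitutive HSP70; 10937827) was at 12.12, 12.11 and 12.06 with fibrinogen and at 12.11, 12.11 and 12.12 in control, a change of -0.02 (95% interval -0.18 to 0.14). Hspa8 has 8 probe sets here, whose probes may also match its near-identical copies in the genome, and their changes ran from -0.03 to 0.0033. Hspa4, Hspa4l and Hspa14 were at 0.09, 0.06 and 0.10, and Hspa2, Hspa12a and Hspa12b at -0.03, -0.29 and -0.10.

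HSP90 and the chaperonins stayed within narrow bounds. Hsp90aa1, the inducible cytosolic HSP90, averaged 11.36 ± 0.04 with fibrinogen and 11.32 ± 0.04 in control (SD, n = 3), a log2 fold change of 0.04 (95% interval -0.13 to 0.20). Hsp90ab1, the constitutive form, averaged 11.98 ± 0.03 with fibrinogen and 11.94 ± 0.02 in control (SD, n = 3), a change of 0.03 (95% interval -0.13 to 0.19). In mitochondria, Hspd1 (HSP60) and Hspe1 (HSP10), which form the folding chamber, changed by 0.05 and 0.04 (95% intervals -0.11 to 0.22 and -0.12 to 0.20), and Hspa9 (mortalin, the mitochondrial HSP70) by -0.12 (95% interval -0.28 to 0.04). The 8 Cct genes of the cytosolic chaperonin, which folds actin and tubulin, lay between -0.04 (Cct3) and 0.08 (Cct6b), and none passed. Cct4 and Cct5 were at 0.06. The subunit gene Tcp1 is not among them by symbol. Cct6b averaged 3.90 in control, below the median probe set of the arrays (5.78). All 13 genes of these 3 families had 95% intervals inside a 1.5-fold change.

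None of the 13 members of the endoplasmic reticulum group passed. Their changes were positive for 12 of 13 (11 of 13 with each array centred on its median) and for 6798 of all 13355 genes (5388 centred), with a median of 0.11 against 0.003 for all genes (0.07 against -0.04 centred). These signs are a description without a test, and in the wider list of endoplasmic reticulum folding genes given below 21 of 45 changes were positive. Hspa5 (BiP, the HSP70 of the endoplasmic reticulum) averaged 11.08 ± 0.07 with fibrinogen and 10.89 ± 0.08 in control (SD, n = 3), a log2 fold change of 0.18 (95% interval -0.0052 to 0.37, adjusted p = 0.251). Among the 13 alternative fits it passed only where the variance was allowed to follow brightness (adjusted p = 0.0237). Herpud1 (a membrane protein of the degradation pathway) was at 6.99, 6.87 and 7.06 with fibrinogen and at 6.52, 6.77 and 6.83 in control, without overlap and with the largest change of the group, 0.27 (adjusted p = 0.202). Hspa13 was at 0.22 and Pdia6, a disulfide isomerase, at 0.16 (adjusted p = 0.255 and 0.277).

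The lectin chaperones of glycoprotein folding, Calr (calreticulin) and Canx (calnexin), were at 0.14 and -0.07 on the log2 scale, with 95% intervals of -0.05 to 0.33 and -0.26 to 0.11. Xbp1, the transcription factor of the IRE1 branch, was at 0.13 (95% interval -0.07 to 0.33), though its splicing, which sets its activity, is not read by this probe set's level. Hsp90b1 (GRP94), Hyou1 (GRP170) and Sdf2l1 were at 0.10, 0.11 and 0.11. Of the J-domain proteins of this compartment, Dnajb9, Dnajb11 and Dnajc3 were at -0.02, -0.07 and -0.01. Other J-domain proteins of its membrane, Dnajb12, Dnajc14, Dnajc16, Dnajc18 and Dnajc25, were at -0.27, -0.13, -0.19, 0.07 and -0.22 and did not pass. Among these, all fibrinogen arrays were below control for Dnajc14 and Dnajc25 only. The stress element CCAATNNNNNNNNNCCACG, searched on both strands, stood upstream of 5 of the 11 members of this group with a sequence (Hspa5, Hsp90b1, Calr, Canx and Xbp1), of Dnajc3 besides, and of 0.127% of the tested genes. It is shown for Hspa5 (chr3:38452766-38453015, plus strand, GRCr8), with the element in capitals.
Hspa5: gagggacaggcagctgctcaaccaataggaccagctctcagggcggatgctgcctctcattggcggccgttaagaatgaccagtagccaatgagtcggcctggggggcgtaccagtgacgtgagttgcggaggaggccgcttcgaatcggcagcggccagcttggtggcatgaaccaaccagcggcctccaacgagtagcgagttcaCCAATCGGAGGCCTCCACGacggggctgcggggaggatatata

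**Figure D3:**
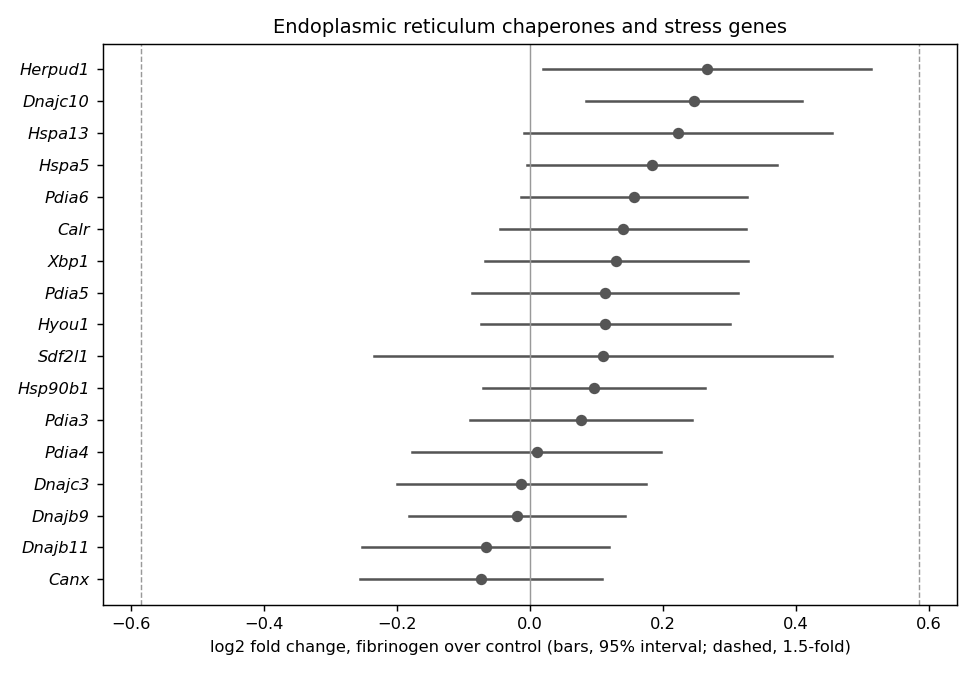
Log2 fold change (fibrinogen over control, horizontal axis) with 95% intervals (bars) of the 13 endoplasmic reticulum members and of 4 J-domain proteins of that compartment (Dnajb9, Dnajb11, Dnajc3 and Dnajc10); dashed lines mark 1.5-fold. All 17 intervals shown lie between the dashed lines, and Herpud1 and Dnajc10 have the largest estimates.

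Set beside their upstream sequences, the 13 members with a heat shock element did not move as 1 group. Hspb1, Hspb6 and Bag3 rose, Hspb8 and Hsph1 fell, and 8 did not pass. Those 8 were Dnaja1, Dnajb1, Dnajb6, Dnajc18, Hspa8, Hspa9, Hspd1 and Hspe1, with changes between -0.12 and 0.07. Hspd1 and Hspe1 are neighbours whose upstream windows share sequence, so they are not separate cases. Of the 4 members with the 3-unit element, Hsph1 fell and Hspa8, Hspd1 and Hspe1 did not pass. The called genes Dnajb5 and Dnajc9 had no such letters in the 250 bases searched.

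**Figure D4:**
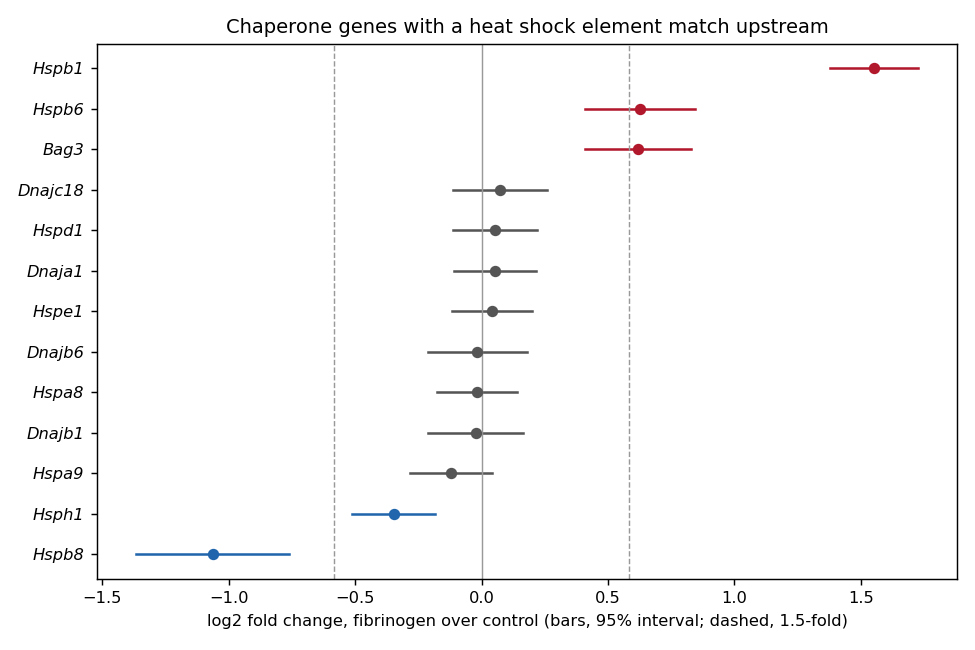
Log2 fold change (fibrinogen over control, horizontal axis) with 95% intervals (bars) of the 13 members whose 250 upstream bases hold the 2-unit element GAANNTTC. Dashed lines mark 1.5-fold and colour marks called genes (red higher, blue lower). Hspb1, Hspb6 and Bag3 lie to the right of 0, Hsph1 and Hspb8 to the left, and the other 8 cluster around 0.

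Genes that work with the chaperones but fall outside their symbols were read from 4 lists. Of 25 measured heat shock factors and cytosolic co-chaperones, Fkbp5 (a glucocorticoid-induced partner of HSP90) rose 1.33-fold (log2 fold change 0.41, adjusted p = 0.0365) and 24 did not pass. The call of Fkbp5 was lost without any 1 array (highest adjusted p = 0.112, without fibrinogen 1). It was also lost with each array centred on its median, without moderation and with a replicate block. Hsf1, the heat shock factor itself, was at 0.12 on the log2 scale and Hsf2 at -0.07, neither of which passed, and Tcp1, the chaperonin subunit that the symbols leave out, was at 0.07. The list's median change was 0, beside 0.003 over all genes. None of 10 mitochondrial chaperones and proteases passed, with a median of 0.05. Clpb and Trap1 came closest, at 0.33 and 0.26 (adjusted p = 0.186 and 0.193).

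Of the 5 measured alpha-crystallin and stress-inducible genes, 2 rose (Cryab and Rgs2), 1 fell and 2 did not pass. Hmox1 (heme oxygenase, induced by oxidative stress and heme) had log2 levels of 6.38, 6.63 and 6.76 with fibrinogen, against 7.32, 7.15 and 7.40 in control. It fell 1.62-fold (log2 fold change -0.70, SE 0.12, adjusted p = 0.0174), a call lost without fibrinogen 1 or 2, without control 1 or 3 and without moderation (highest adjusted p = 0.0901, without moderation). Rgs2 (a regulator of G protein signaling that stress can induce) rose 1.64-fold (adjusted p = 0.0270). Its call was lost without fibrinogen 1 or 3, without control 1 or 3, with a replicate block and without moderation (highest adjusted p = 0.121, without moderation). Serpinh1 (HSP47, the collagen chaperone) was at -0.03.

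Of 45 measured genes of endoplasmic reticulum folding and the unfolded protein response, Atf3 fell and 44 did not pass, with a median of -0.01. Atf3 encodes a transcription factor that ATF4 and other stress pathways induce. Its log2 levels were 6.24, 6.09 and 6.20 on fibrinogen arrays, against 6.87, 6.80 and 6.74 on control arrays. Atf3 fell 1.54-fold (log2 fold change -0.63, SE 0.08, adjusted p = 0.00564) and kept its call in each of 13 alternative fits (highest adjusted p = 0.0383). Over the 4 lists, 3 of 85 genes rose and 2 fell (5.88%), beside 7.16% of all genes.

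Some markers of cell types, the cultured lineage among them, moved in the same comparison, and their part in the chaperone changes was not tested. Of 8 measured astrocyte markers, 4 rose (Gfap, Slc1a2, Slc1a3 and Fgfr3) and 4 did not pass, and the mean log2 level of the list ranged from 8.30 to 8.35 over fibrinogen arrays and from 7.97 to 8.04 over control arrays. Of 5 oligodendrocyte markers 3 fell (Mag, Mbp and Cnp), with list means of 9.08 to 9.16 with fibrinogen and 9.44 to 9.54 in control. Of 6 progenitor markers, none of which lay below the median probe set in control, 3 rose (Cspg4, Pdgfra and Olig1), with list means of 10.47 to 10.54 with fibrinogen and 10.16 to 10.25 in control. The 10 microglia and macrophage markers, of which Itgam and Cd53 fell, all lay below the median probe set in control, with list means of 4.11 to 4.14 with fibrinogen and 4.28 to 4.40 in control. Of 7 neuron markers, Elavl4 and Stmn3 rose and Syt1 fell, with list means of 7.74 to 7.90 with fibrinogen and 7.70 to 7.87 in control. None of 3 endothelial markers passed (list means of 3.61 to 3.98 with fibrinogen and 3.70 to 3.94 in control). Mgp alone rose among 6 pericyte and fibroblast markers (list means of 5.10 to 5.23 with fibrinogen and 4.88 to 4.97 in control).

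How firmly the 7 calls stood differed between genes. Hspb1 and Dnajb5 kept their calls in all 13 alternative fits, with a highest adjusted p of 0.0238 for Hspb1 and 0.0395 for Dnajb5. Hspb6, Hspb8 and Bag3 kept theirs in 12 of the 13 each. These included every fit with 1 array left out (highest adjusted p there = 0.0491, 0.0298 and 0.0450). Hspb6 and Hspb8 lost their calls without moderation, and Bag3 lost its call with a replicate block (adjusted p = 0.0552). Hsph1 and Dnajc9 kept theirs in none of the 6 fits with 1 array left out.

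**Figure D5:**
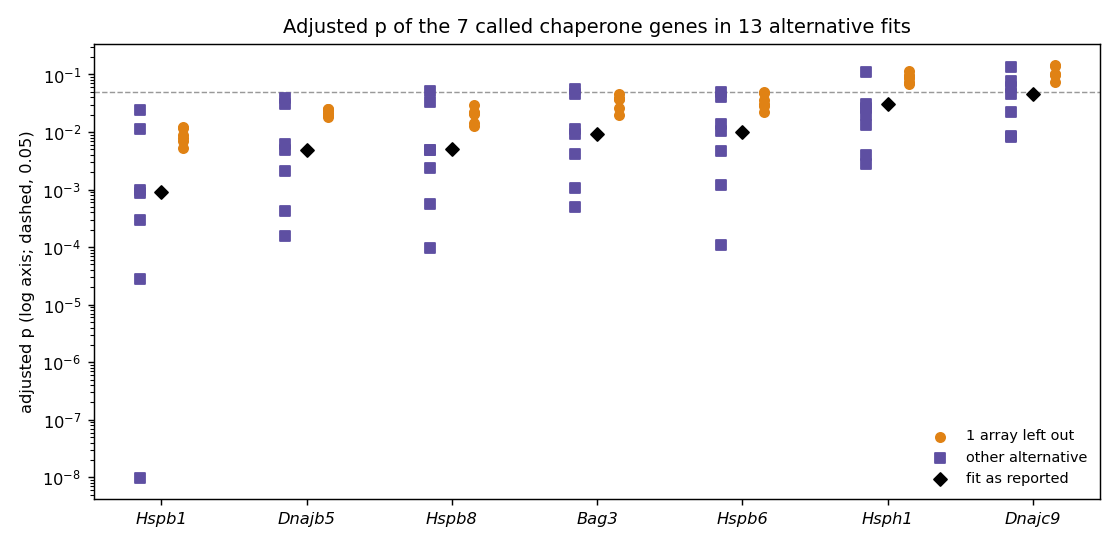
Adjusted p (log axis) of the 7 called members in the fit as reported (diamonds), with 1 array left out (circles) and in the other alternative fits (squares); the dashed line marks 0.05. All points of Hspb1 and Dnajb5 lie below the line, and all circles of Hsph1 and Dnajc9 lie above it.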

How the data were processed

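The deposited values are the authors' log2 expression levels per probe set, normalized between arrays and rounded to 2 decimals. Per the submitters' processing notes, RMA and limma were used, with no version given; the other steps are not given in the sources used here. RMA can compress changes of dim probe sets, and no detection call is given. The array median was 5.84 on each fibrinogen array and 5.78, 5.80 and 5.80 on control 1, 2 and 3, so that the medians differ by group. Of 26312 probe rows, 2681 are empty. Of 14083 valued probe sets with 1 symbol, 14059 were found by gene number among the rat genes of RefSeq. The 228 with several symbols and the 9320 unnamed ones were left out. Each of 13355 genes is represented by its probe set with the highest mean.

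The 2 groups were tested against each other with lmFit and eBayes of limma 3.58.1 under R 4.3.3, two-sided and without covariates or a filter on dim probe sets (in control, 16 of 86 members were dimmer than the median probe set), with Benjamini-Hochberg adjustment over all genes; the fit was tested on simulated data. Precision is limited by having 3 arrays a group: the median SE was 0.104 over all genes and 0.0811 over members. With 3 arrays against 3 an exact permutation test cannot go below 0.1, so none was used. The genes named are all called members, the 3 with the smallest p in each family, a fixed set of well-known chaperones, and called genes of 4 lists (at most 6 each); others named are further members or list genes, chosen after their values were seen. Members, families and lists were chosen with earlier results of these data known. Upstream sequences are from RefSeq, with coordinates of GRCr8; the array's own build is not given. The 13 alternative fits subtracted array medians, left out dim genes at 2 cutoffs, averaged the probe sets of a gene, let the variance follow brightness, dropped moderation, added a replicate block, or left out each of the 6 arrays.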

Additional observations from a re-analysis of the deposited data

How the results depend on the processing

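The numbers of arrays in the titles did not pair them: the deviations of same-numbered arrays from their group means correlated at 0.02, -0.14 and -0.07 over all genes. With the replicate block nonetheless fitted, 199 genes were higher and 144 lower, and 3 members rose and 1 fell, since Bag3, Dnajc9 and Hsph1 did not pass (adjusted p = 0.0552, 0.134 and 0.109). Leaving out 1 array gave 208 to 379 genes higher, 150 to 239 lower, 4 members higher and 1 lower in each of the 6 fits. Without moderation there were 268 genes higher and 232 lower, and 4 members higher and 1 lower. With a variance trend there were 947 genes higher, 692 lower and 11 members higher. Without genes below the median brightness, where fewer genes were tested, 627 genes were lower and 9 members higher; without the dimmest 25% of genes, 7 members were higher. The background moved with these counts: 21.8% of all genes were called without genes below the median brightness and 12.3% with the trend, against 16.7% and 15.1% of the members. For the 40 named genes, 466 of 515 values in alternative fits stayed on the same side of the threshold, 40 lost a call and 9 gained one. No called value changed sign, but 7 of the 466, none of them called, did. Where not stated, the cause of a change was not tested.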
